A study of Mus musculus with 6 samples.

Results

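Chemokine receptors are the subject here: Cxcr6, Cxcr3, Cxcr4, Cxcr5, Ccr2, Ccr7, Ccr8, Ccr9 and Cx3cr1, 9 of the 20018 genes that could be named on the arrays. They were measured in macrophages of the splenic red pulp, which clear aged red blood cells, sorted by flow cytometry from 3 Bach2 knockout and 3 wild-type mice. Cxcr6 was chosen by its measured values, as one of the genes higher in knockout with the smallest p in these same 6 arrays, and the other 8 were set beside it as members of its family with results of this contrast known. Knockout against wild type is therefore described without a test for the 9 receptors. Their probes were found through the RefSeq accession of each probe, and every probe was kept, 12 in all, of which 10 were well above background on all 6 arrays.

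All mice were C57BL/6 and 8 to 9 weeks old, and each gave 1 array with a single Cy3 channel. The knockout mice were 3 males that the labels describe only as Bach2 knockout, without naming the deleted part, a Cre driver or the surface markers of the sort gate. The wild-type mice were 2 males and 1 female, replicate 3. Knockout RNA lay in array row 2 and wild-type RNA in array row 1 of a single slide, so genotype and row cannot be told apart; each array column held 1 mouse of each genotype. Replicate 3 of each genotype carries the tag P6, whose meaning is not stated. Levels are log2 processed signal minus the 75th percentile of the array, differences are knockout minus wild type with the SE of limma, and SDs are over 3 mice; the number of arrays limits their precision.

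Chemokine receptors are G protein-coupled receptors that steer leukocytes along gradients of chemokines, and each leukocyte type carries its own set of them. In the spleen, Cxcr5 and Ccr7 place B and T cells in the white pulp, Ccr2 and Cx3cr1 mark monocytes, and Cxcr3 and Cxcr6 mark effector and tissue-resident lymphocytes. BACH2 is a transcriptional repressor that binds Maf recognition elements and restrains effector differentiation of lymphocytes. In RNA of a sorted population, more cells of a type and more RNA per cell cannot be told apart.

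The deleted gene was read first. The brighter Bach2 probe read -2.24, -3.72 and -1.15 in the knockout mice, against -0.90, 0.02 and -1.35 in the wild-type mice, so that knockout replicate 3 lay within the wild-type range. The dimmer probe of Bach2 was at background throughout, and neither probe can be placed relative to the deleted part. Of 19 red pulp macrophage markers on the arrays, 18 were well above background on all 6, the exception being Cd163, a hemoglobin scavenger receptor. By their brightest probe 0 of the 19 had a difference above 0 and 19 below 0, with a median of -0.46. The median was 0.04 over all named genes and -0.08 over those well above background on at least 3 arrays. Limma called 0 of the 19 markers. Their summed signal, in units of the 75th percentile, ranged over 1664 to 2152 in knockout and 1842 to 3648 in wild type. Over all 55681 probes limma called 0 (0%) with an adjusted p below 0.05, and 528 (0.948%) had an unadjusted p below that limit. That second number was unstable: it was 1186 without knockout replicate 3, 1122 without wild-type replicate 1, 975 without wild-type replicate 2, 964 without wild-type replicate 3 and 820 without knockout replicate 2.

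Cxcr6, the receptor of the transmembrane chemokine Cxcl16 on effector T cells, NKT cells and innate lymphoid cells, was higher in every knockout mouse than in every wild-type mouse. Its brighter probe read 1.66, 2.59 and 1.49 in the knockout mice, against -0.53, -0.39 and -0.93 in the wild-type mice. Knockout replicate 2 was the highest array, and the groups were parted by 1.88 on the log2 scale. The mean level was 1.91 ± 0.59 in knockout and -0.62 ± 0.28 in wild type (SD, n = 3 each), a log2 difference of 2.53 ± 0.63 (SE) or 5.79-fold. The second Cxcr6 probe read 1.17, 1.97 and 0.89 in the knockout mice, against -1.19, -0.81 and -1.23 in the wild-type mice. It ranked the 6 arrays in the same order as the first and gave a difference of 2.42 ± 0.63 (SE), or 5.36-fold.

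Before scaling, the processed signal of the brighter Cxcr6 probe was 4329, 6205 and 7509 in the knockout mice, against 1054, 1100 and 400.1 in the wild-type mice. The knockout values lay above the wild-type values here too, on the same arrays by which Cxcr6 was chosen. Unscaled signal also carries the brightness of each array. The 75th percentile was 1370, 1032 and 2664 in the knockout mice, against 1526, 1438 and 763.9 in the wild-type mice. Within array columns 1, 2 and 3 the log2 difference was 2.19, 2.97 and 2.43. Among the 11749 named genes well above background on at least 3 arrays, 17 had a larger positive difference.

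The authors' deposited table, a selection of 279 probes centred on the median of the 6 arrays, holds both Cxcr6 probes and none of the other 8 receptors. For the brighter probe the authors' deposited table gives 1.11, 2.03 and 0.93 in knockout against -1.08, -0.93 and -1.48 in wild type. For the second probe the authors' deposited table gives 1.14, 1.93 and 0.84 in knockout against -1.22, -0.84 and -1.26 in wild type.

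**Figure D1:**
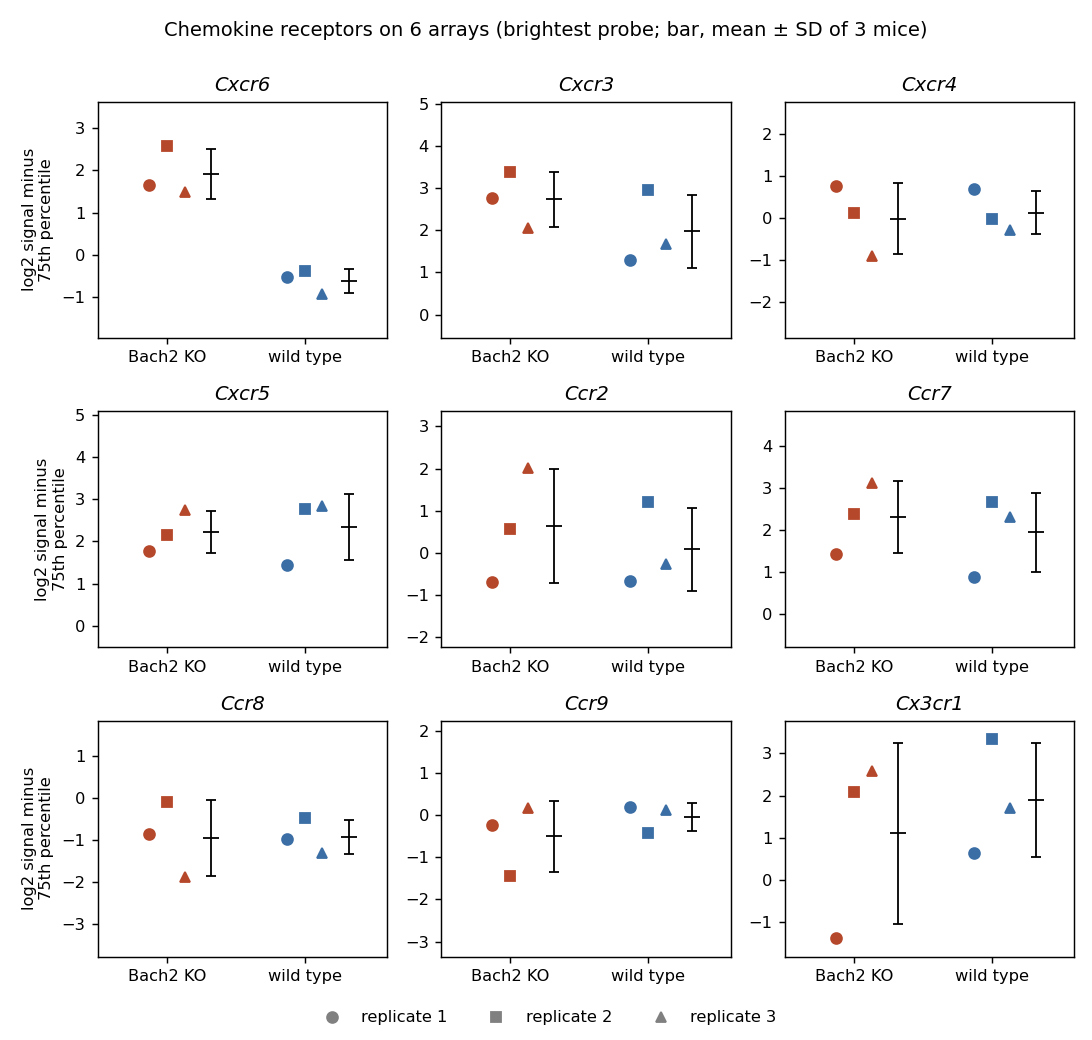
Level of each receptor (log2 processed signal minus the 75th percentile of the array, brightest probe) in 3 Bach2 knockout mice (left, red) and 3 wild-type mice (right, blue), with the replicate by marker shape and the mean ± SD as a black bar; every panel spans the same number of log2 units. Cxcr6 is the receptor whose genotypes do not overlap, with knockout mice from 1.49 to 2.59 and wild-type mice from -0.93 to -0.39.

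Of the 9 receptors, Cxcr6 was the 1 whose genotypes did not overlap with knockout higher, 11.1%, and 0 lay wholly lower. Over the 19980 named genes with a value on every array the background of such separation was 0.846% for knockout higher and 1.64% for knockout lower, and over the 11736 of them well above background on at least 3 arrays it was 1.17% and 1.65%. As the receptors were picked with this contrast known, nothing is read from that count. By their brightest probe 4 receptors had a difference above 0 and 5 below 0, with a median of -0.02. The median was 0.04 over all named genes and -0.08 over those well above background on at least 3 arrays.

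Cxcr3, the receptor of the interferon-induced chemokines Cxcl9 and Cxcl10 on effector T cells and NK cells, had the next largest positive difference. It read 2.76, 3.38 and 2.06 in the knockout mice, against 1.29, 2.95 and 1.68 in the wild-type mice. Wild-type replicate 2 lay above 2 of the knockout mice, and the groups overlapped. The difference was 0.76 ± 0.70 (SE), and within columns 1, 2 and 3 it was 1.47, 0.43 and 0.38. Cxcr3 lies on the X chromosome, and the female wild-type mouse lay between the male wild-type mice.

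Ccr8, the receptor of Ccl1 on regulatory and type 2 helper T cells, showed nearly equal group means. Its brighter probe read -0.85, -0.09 and -1.89 in the knockout mice, against -0.98, -0.49 and -1.31 in the wild-type mice, a difference of -0.02 ± 0.68 (SE). The knockout mice included both the highest and the lowest array. The other Ccr8 probe stayed at background on all 6 arrays, so it gives neither a level nor a bound.

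The RefSeq sequence before the annotated start was compared for Cxcr6 and Cxcr3, which had the largest positive differences, and for Ccr8, whose group means lay closest. The 250 bases before the start are given 5′ to 3′ on the strand of the gene from RefSeq assembly GRCm38.p6, at chr9:123806227-123806476 (plus strand) for Cxcr6, chrX:101734148-101734397 (minus strand) for Cxcr3 and chr9:120091883-120092132 (plus strand) for Ccr8, and capitals mark the Runx core hexamer TGTGGT on either strand.
Cxcr6: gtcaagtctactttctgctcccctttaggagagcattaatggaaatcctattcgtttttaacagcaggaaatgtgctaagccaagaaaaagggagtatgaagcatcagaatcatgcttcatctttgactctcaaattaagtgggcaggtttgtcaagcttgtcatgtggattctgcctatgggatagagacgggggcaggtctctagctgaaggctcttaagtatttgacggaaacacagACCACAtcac
Cxcr3: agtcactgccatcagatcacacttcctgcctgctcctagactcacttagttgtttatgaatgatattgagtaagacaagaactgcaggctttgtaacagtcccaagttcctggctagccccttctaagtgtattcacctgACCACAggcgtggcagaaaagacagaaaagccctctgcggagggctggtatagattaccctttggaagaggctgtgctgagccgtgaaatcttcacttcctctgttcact
Ccr8: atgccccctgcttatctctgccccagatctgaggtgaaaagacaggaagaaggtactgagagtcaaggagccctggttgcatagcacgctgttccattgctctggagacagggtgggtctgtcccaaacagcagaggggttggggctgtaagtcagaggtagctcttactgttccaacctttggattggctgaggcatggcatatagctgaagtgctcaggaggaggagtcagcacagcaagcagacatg
The search covered TGANTCA, the AP-1 site that is also the core of the Maf recognition element, the full palindromic Maf recognition element (which contains TGANTCA), the T-box core GGTGTGA and the Runx core TGTGGT, each on both strands. Sequence was at hand for 7 of the 9 receptors, all but Cxcr5 and Ccr7. TGANTCA was in 0 of the 7 windows, beside 6.75% of all 32841 windows of this length, the full Maf recognition element in 0 beside 0.00609%, and GGTGTGA in 0 beside 3.33%. TGTGGT was in 3 of the 7, those of Cxcr6, Cxcr3 and Cx3cr1, beside 14% of all windows, and in Cxcr6 it began 10 bases before the start. A match describes letters only, and its absence says nothing of binding elsewhere.

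Cxcr5 and Ccr7 guide lymphocytes into the white pulp, Cxcr5 into B cell follicles and Ccr7 into T cell zones. Cxcr5 read 1.76, 2.16 and 2.75 in the knockout mice, against 1.45, 2.77 and 2.84 in the wild-type mice, a difference of -0.13 ± 0.67 (SE). Ccr7 read 1.43, 2.39 and 3.13 in the knockout mice, against 0.88, 2.66 and 2.31 in the wild-type mice, a difference of 0.36 ± 0.73 (SE). For both receptors the array of column 1 was the lowest of its genotype, and the groups overlapped.

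Ccr2, which brings monocytes out of the bone marrow, and Cx3cr1, the fractalkine receptor of monocytes and macrophages, varied most between mice of a genotype. Ccr2 read -0.69, 0.56 and 2.02 in the knockout mice, against -0.68, 1.20 and -0.26 in the wild-type mice. The difference of 0.54 ± 0.81 (SE) rested on knockout replicate 3 and was -0.15 without that mouse. Within columns 1, 2 and 3 it was -0.01, -0.63 and 2.28.

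Cx3cr1 read -1.38, 2.09 and 2.59 by its brighter probe in the knockout mice, against 0.63, 3.34 and 1.71 in the wild-type mice. Knockout replicate 1 was the lowest array, and the SD was 2.16 in knockout and 1.36 in wild type (n = 3 each), where the median SD within a genotype over the 11749 named genes was 0.62. The difference was -0.79 ± 1.03 (SE) and turned to 0.44 without knockout replicate 1. The dimmer Cx3cr1 probe read -2.46, -0.38 and 0.32 in the knockout mice, against -1.18, -0.41 and -0.36 in the wild-type mice, and was not well above background on knockout replicate 1.

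Cxcr4, the Cxcl12 receptor that retains haematopoietic cells in the bone marrow, read 0.76, 0.12 and -0.91 in the knockout mice, against 0.70, -0.03 and -0.29 in the wild-type mice. Ccr9, the Ccl25 receptor of thymus and gut homing, read -0.24, -1.44 and 0.16 in the knockout mice, against 0.20, -0.42 and 0.11 in the wild-type mice. In both the lowest array was a knockout mouse and the groups overlapped. The differences were -0.14 ± 0.68 for Cxcr4 and -0.47 ± 0.67 for Ccr9 (SE). Over 16 other settings the sign was the same for Cxcr6, Cxcr3 and Ccr9, and changed in 7 for Ccr8, 4 for Cxcr5, 3 for Cxcr4, 2 for Ccr2, 2 for Ccr7 and 1 for Cx3cr1. The sizes moved more: the Ccr9 difference was -0.00066 without knockout replicate 2 and -0.80 without knockout replicate 3, and the Cxcr3 difference was 0.42 without wild-type replicate 1, 0.44 without knockout replicate 2 and 1.25 without wild-type replicate 2.

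**Figure D2:**
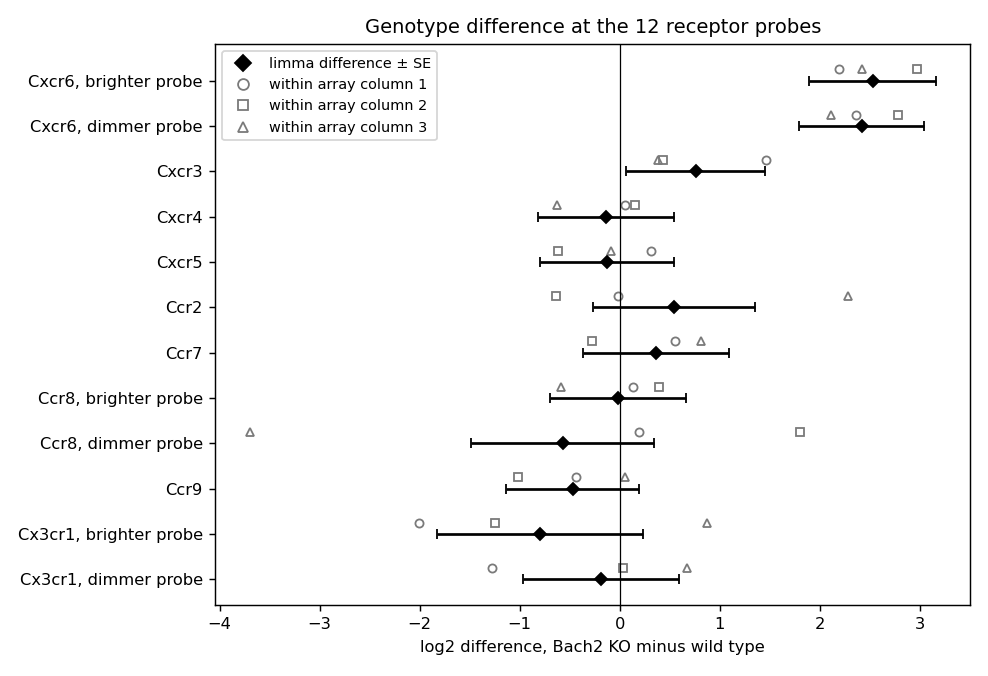
Log2 difference, Bach2 knockout minus wild type, at each of the 12 receptor probes, with the limma estimate ± SE as a black diamond and the difference within array columns 1, 2 and 3 as open grey circles, squares and triangles. Both Cxcr6 probes lie above 2 in every column, while the columns fall on both sides of 0 for Cxcr4, Cxcr5, Ccr2, Ccr7, Ccr8, Ccr9 and Cx3cr1; the dimmer Ccr8 probe was at background on all 6 arrays, so its difference has no meaning as a level.

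Markers of cells other than macrophages moved with several of the receptors. The T cell list had 18 genes, of which 15 were well above background on at least 3 arrays and 12 on all 6, while Cd247, the zeta chain of the T cell receptor complex, and Ubash3a reached it on 0. Of the 18, 17 had a difference above 0, with a median of 0.94, beside 0.04 over all named genes, and limma called 0 of them. The summed signal of the list, in units of the 75th percentile, ranged over 37.6 to 93.6 in knockout and 28.4 to 45.5 in wild type. The list of NK cells and type 1 innate lymphoid cells had 14 genes, all well above background on at least 3 arrays and 13 of them above 0 with 0 called by limma, with a median of 1.11 and sums of 125.0 to 383.9 in knockout and 54.4 to 86.4 in wild type.

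Differences above 0 were not limited to the lymphocyte lists. Of 9 neutrophil genes 7 had a difference above 0, with a median of 0.86 and 0 called by limma, and the summed signal ranged over 106.5 to 439.9 in knockout and 59.8 to 290.0 in wild type. Their centred mean was 0.28, 1.64 and -0.48 in the knockout mice, against -0.38, 0.35 and -1.41 in the wild-type mice, highest on knockout replicate 2 and lowest on wild-type replicate 3. The median difference was 0.55 for the erythroid list, 0.14 for plasma cells, -0.06 for dendritic cells and -0.45 for platelets. Of the 7 platelet genes 3 were well above background on at least 3 arrays, and over those the median was -0.93. The red pulp macrophage markers lay lower in knockout, as given above.

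Cxcr6 ran with both lymphocyte lists. The mean of the T cell list, centred over the 6 arrays, was 0.41, 0.80 and 0.08 in the knockout mice, against -0.19, -0.32 and -0.78 in the wild-type mice. The NK list gave 0.02, 1.13 and 0.46 in the knockout mice, against -0.39, -0.24 and -0.97 in the wild-type mice. Both lists and Cxcr6 were highest on knockout replicate 2 and lowest on wild-type replicate 3.

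The part of lymphocytes, neutrophils and macrophages in the Cxcr6 difference was not tested. Set against the lymphocyte lists, the Cxcr6 level minus the T cell mean was 1.25, 1.79 and 1.42 in the knockout mice, against -0.34, -0.07 and -0.15 in the wild-type mice. The groups did not overlap, and the difference was 1.67. Minus the NK mean the Cxcr6 level was 1.64, 1.46 and 1.04 in knockout, against -0.14, -0.15 and 0.04 in wild type, a difference of 1.46. A list mean averages genes that moved unequally. Single differences ran from -0.19 to 1.53 in the T cell list. In the NK list they ran from -0.21 to 3.19, the value of Gzmb, beside 2.53 for Cxcr6 itself. For Cxcr3 the same subtraction left -0.10 against the T cell list and -0.31 against the NK list, with the groups overlapping. These subtractions were chosen after the values were seen, and Cxcr6 itself was chosen by its genotype difference. The list means differed by 0.86 (T cell) and 1.07 (NK), so a remainder above 0 for Cxcr6 was set beforehand. Nothing is read from that remainder or from its contrast with Cxcr3.

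Cxcr5 ran with the B cell list, 12 genes that were all well above background on at least 3 arrays, 6 above and 6 below 0, with sums of 131.1 to 175.5 in knockout and 93.5 to 202.7 in wild type. The centred B cell mean was -0.33, -0.06 and 0.33 in the knockout mice, against -0.86, 0.18 and 0.74 in the wild-type mice. As for Cxcr5, wild-type replicate 1 was the lowest array and wild-type replicate 3 the highest. Cxcr5 minus that mean spanned 2.09 to 2.42 in knockout and 2.09 to 2.60 in wild type, a narrower spread than that of Cxcr5 itself in each genotype.

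Cx3cr1 and Ccr2 were set beside the inflammatory monocyte list. Without Ccr2 itself, 6 of its 8 genes were on the arrays with a name and passed the limit of 3 arrays, 3 above and 3 below 0, with sums of 156.3 to 215.3 in knockout and 101.4 to 238.9 in wild type. The centred monocyte mean was -0.71, 0.27 and 0.28 in the knockout mice, against -0.44, 0.72 and -0.12 in the wild-type mice. The brighter Cx3cr1 probe ranked the 6 arrays in the same order as this list, with knockout replicate 1 lowest and wild-type replicate 2 highest. The dimmer Cx3cr1 probe did not keep that order. Its highest array was knockout replicate 3, at 0.32, and wild-type replicate 2 read -0.41. Minus the monocyte mean the difference was 0.65 for Ccr2 and -0.69 for the brighter Cx3cr1 probe, beside 0.54 and -0.79 before. The SDs in knockout and wild type were then 0.92 and 0.39 for Ccr2, and 1.59 and 0.77 for Cx3cr1. The subtractions for Cxcr5, Ccr2 and Cx3cr1 were also chosen after the values were seen. The part of B cells and monocytes in the levels of these receptors was not tested.

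**Figure D3:**
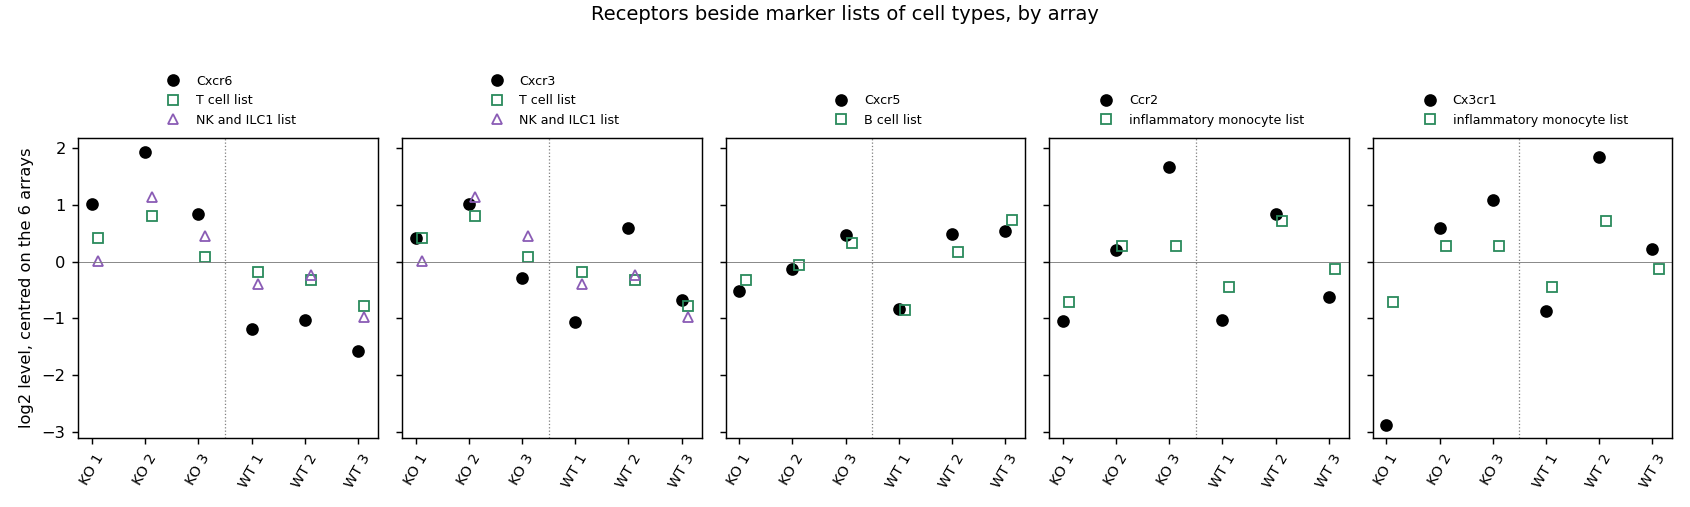
Levels of 5 receptors (black circles) and means of marker lists (open symbols) on each array, both on the log2 scale and centred on the 6 arrays, with the 3 Bach2 knockout mice left of the dotted line and the 3 wild-type mice right of it. The Cxcr6 circles lie further from 0 than the T cell and NK list symbols on all 6 arrays, while the Cxcr5 circles lie near the B cell list.

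The genes whose level was most like that of Cxcr6 were sought among 11362 named genes by Pearson's r over the 6 arrays, as a description. The closest were Klra16, a lectin-like receptor of the Ly49 family (r = 0.97), Sh2d1a, which encodes the adaptor SAP (0.97), Kdm8 (0.96), Lck, the kinase of T cell receptor signalling (0.96), and the complement gene C4b (0.95). Their log2 differences ran from 0.49 for Kdm8 to 2.06 for Sh2d1a. All 5 were higher in every knockout mouse than in every wild-type mouse. Cxcr6 was chosen by that same contrast, so this likeness in part restates it. After the mean of each genotype was subtracted, the closest were Rflnb, Hmgb1-rs17, Mettl26, Slc22a28 and Ccl27a, with r of 0.995 to 0.999. Over the 6 arrays these 5 genes had r of -0.04 to 0.68 only, and the points of each r share arrays and scaling.

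Within the family, the receptor most like Cxcr6 over the 6 arrays was Cxcr3 (r = 0.66), and Ccr9 ran most against it (r = -0.64). With the genotype means subtracted, Ccr8 had r = 0.90 and Ccr9 r = -0.93. Each r rests on 6 arrays, and subtracting the genotype means leaves fewer free values still, so that large r arise more easily.

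Cxcr6 lies in a cluster of receptor genes on mouse chromosome 9. In RefSeq order of start positions the 5 named genes before it are Slc6a20b, Slc6a20a, Lztfl1, Ccr9 and Fyco1, and the 5 after it are Xcr1, Ccr1, Ccr1l1, Ccr3 and Ccr2. Whether any of these genes overlap Cxcr6 was not examined. Of these 10 neighbours 7 were well above background on at least 3 arrays, and for 0 of the 10 did the genotypes separate. Over all named genes such separation was 0.846% for knockout higher and 1.64% for knockout lower. Their differences ran from -0.47 for Ccr9 to 0.72 for Xcr1. Fyco1, the last before Cxcr6 in this order, had -0.04 ± 0.80 (SE, limma adjusted p = 1.0). Of the 8 neighbours outside the 9 receptors 0 had an unadjusted limma p under 0.05. The share over all named genes was 0.624% higher and 0.240% lower. With shares this small, counts of 0 among so few genes say nothing particular of this region.

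Among 15 other chemokine receptors, 9 were well above background on at least 3 arrays, and limma called 0 of the 15. Unadjusted, 0 had a limma p below 0.05, beside 0.624% higher and 0.240% lower over all named genes. Ccr3, the eotaxin receptor of eosinophils, was on every array, at 5.38, 5.33 and 5.92 in the knockout mice, against 4.79, 6.54 and 6.34 in the wild-type mice. Its difference was -0.34 ± 0.68 (SE, limma adjusted p = 1.0). The highest differences of the 9 belonged to the decoy receptor Ackr1 at 0.85 ± 1.17, Ackr3, a scavenger of Cxcl12, at 0.79 ± 0.69 and Xcr1, the receptor of cross-presenting dendritic cells, at 0.72 ± 0.78 (SE).

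Below 0 lay Ccr10, a receptor of skin-homing T cells and plasma cells, at -0.91 ± 0.67, Ccr6, a receptor of B cells and type 17 T cells, at -0.62 ± 0.70, and Ccr3 (SE). The decoy receptor Ackr2 had 0.06 ± 0.75 and the chemerin-binding Ccrl2 had 0.51 ± 0.61 (SE). Each receptor named here had a limma adjusted p of 1.0, and the genotypes overlapped. Ccr1, Ccr1l1, Ccr4, Cxcr1, Cxcr2 and Ackr4 did not reach the limit of 3 arrays.

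The ligands of the 9 receptors were read as a list written with earlier results of these arrays known. Of 15 ligands 14 had a named probe, 9 passed the limit of 3 arrays, and limma called 0 of 14. Before adjustment 3 higher ligands and 0 lower ones had p below 0.05, beside a background of 0.624% higher and 0.240% lower over all named genes. The 3 were Ccl1, Ccl8 and Cx3cl1, and nothing is read from that count, as Ccl1 was known beforehand. All of them stayed at background in wild type.

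Ccl1, the ligand of Ccr8, read -0.59, 1.70 and -2.66 in the knockout mice, against -3.94, -6.43 and -4.24 in the wild-type mice. It was well above background on 3 of 3 knockout arrays and at least 6.10-fold higher in knockout by group means (limma adjusted p = 1.0). The bound sets the knockout mean against a floor on each wild-type array. That floor is the lowest level well above background, or the level of the probe itself if higher. Knockout replicate 3, at -2.66, lay below the floor of wild-type replicate 3, -2.18, so the bound does not hold for each mouse. Ccl8, also a Ccr8 ligand in mouse, was well above background on 2 of 3 knockout arrays, and Cx3cl1, the ligand of Cx3cr1, on 1 of 3 (limma adjusted p = 1.0 for both). No fold is given for these, since their other knockout arrays were at background.

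Cxcl16, the ligand of Cxcr6, read -1.27, -1.13 and 0.26 in the knockout mice, against -1.62, -0.63 and 0.01 in the wild-type mice. Its difference was 0.04 ± 0.71 (SE), and the array of column 3 was the highest of each genotype. Of the Cxcr3 ligands, Cxcl9 read 3.61, 4.18 and 4.06 in the knockout mice, against 2.08, 3.77 and 2.79 in the wild-type mice. The differences were 1.07 ± 0.67 for Cxcl9 and 0.57 ± 0.71 for Cxcl10 (SE), and both overlapped.

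Ccl2, the monocyte-attracting ligand of Ccr2, had 1.62 ± 0.98 (SE), and 2 of 3 wild-type arrays were well above background. Ccl25, the ligand of Ccr9, had -0.97 ± 0.70 and Cxcl13, the follicular ligand of Cxcr5, had -0.77 ± 0.72 (SE), and Cxcl13 was well above background in 1 of 3 knockout and 2 of 3 wild-type mice. The ligands of Ccr7, Ccl19 and Ccl21a, had -0.35 ± 0.70 and -0.01 ± 0.64 (SE), and the 3 Ccl19 probes differed in sign. The limma adjusted p of each of these ligands was 1.0.

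**Figure D4:**
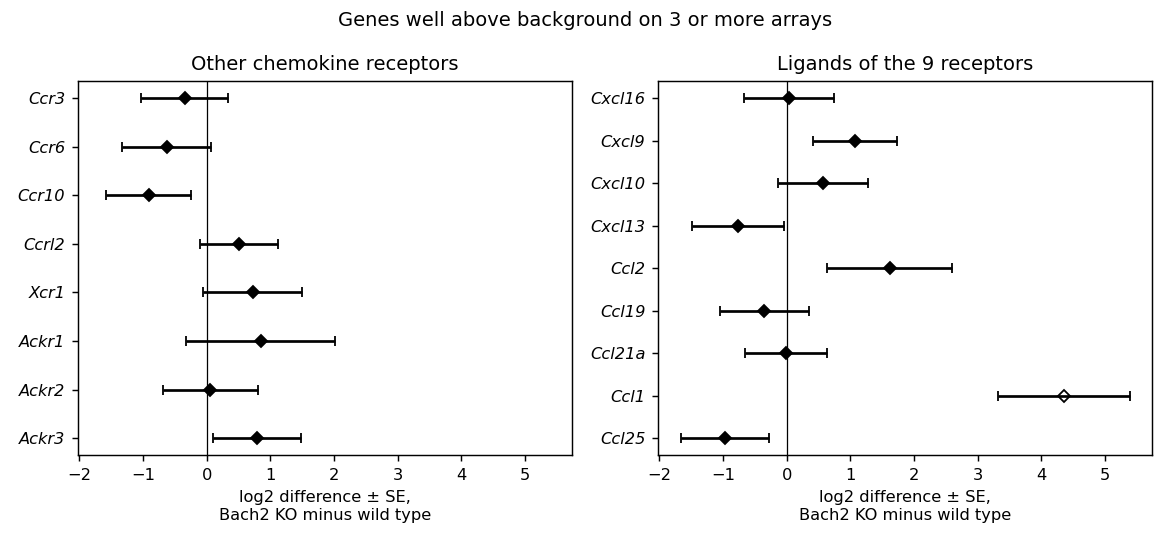
Log2 difference ± SE of limma, Bach2 knockout minus wild type, for other chemokine receptors named in the text (left) and the ligands of the 9 receptors (right), all well above background on at least 3 arrays. The open diamond is Ccl1, which stayed at background in every wild-type mouse, so that its fitted difference of 4.35 is not a bound, and Cxcl16 lies at 0.04.

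Genes that carry the signal of these receptors were read as a list of their own. Of 27 G protein, arrestin, kinase, RGS and motility genes 25 passed the limit of 3 arrays, and limma called 0. Without adjustment 0 had a limma p below 0.05, beside 0.624% higher and 0.240% lower over all named genes. The median difference was -0.10 over the 27, with 10 above 0 and 17 below. Over the 25 that passed it was -0.12. The median was -0.08 over the named genes that passed the same limit and 0.04 over all named genes. By smallest p the first were Rgs16, a GTPase-activating regulator of activated lymphocytes that did not pass the limit of 3 arrays, at 0.97 ± 0.69, the same kind of regulator Rgs18 at -0.91 ± 0.88 and Rgs2 at -0.64 ± 0.64, and the engulfment and motility gene Elmo1, at background on all 6 arrays, at 0.77 ± 0.74 (SE). Each had a limma adjusted p of 1.0.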

How the data were processed

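RNA of 6 sorted samples was amplified, labelled with a cyanine dye and read on 6 Agilent arrays, 62976 spots each. The deposited scanner files hold spot intensity values that the authors extracted with Agilent Feature Extraction, version 10.7.3.1 per the file headers and 9.1 per the submitters' processing notes, subtracted for background within each array. The authors' deposited table holds log2 values, which fit the scanner values scaled to the 75th percentile and centred per probe (largest gap 0.156 over 278 probes matched). Its column medians were -0.29, -0.23 and -0.26 for knockout and 0.32, 0.34 and 0.28 for wild type. The name of the deposited table refers to filters on expression, flags and error. Any further step by which its 279 probes were chosen is not given in the sources used here.

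Outlier-flagged spots, 141 to 283 on an array, were left out, 0 spots were saturated, spots of a probe were averaged as log2 values, and each array's 75th percentile over probes (763.9 to 2664) was subtracted. The share of spots well above background was 37.5% to 51.5%. Accessions were named through RefSeq genes of GRCm38, 26413 of 55681 probes. The array design refers to an older build, so this table served for names and gene order only. A gene is represented by its brightest probe. One linear model per probe was fitted in limma 3.58.1 (R 4.3.3, lmFit, then eBayes) with Benjamini-Hochberg adjustment over all probes. The fit was run on simulated data with large shifts planted in probes of low spread. That checks the code and says nothing of the power to call smaller differences. All arrays shared 1 slide and 1 scan time. Groups come from the genotype label, and replicates, separate mice, are numbered in the order of the records.

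The receptors, the gene lists and the alternatives were chosen with earlier results of these arrays known. Named are all 9 receptors, the listed ligands and other receptors above background on at least 3 arrays, 4 signalling genes, Bach2, 5 neighbours on either side of Cxcr6, and 5 genes most like it by each measure. Ccl8 and Cx3cl1 were named after their values were seen. Probe sequences were not used here, and 1 item of the receptor list is not reported here.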

Additional observations from a re-analysis of the deposited data

How the results depend on the processing

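Over 16 alternatives the Cxcr6 difference ran from 2.20 to 2.74; leaving out each mouse gave 2.20 (without knockout replicate 2) to 2.74 (without knockout replicate 3). Set against the T cell list it was 1.67 and against the NK list 1.46, both chosen after the data were seen, as was normexp on the median signal, run because the files hold no mean signal, so that the planned version was not run. With that correction limma called 3 probes (named after their values were seen: ENSMUST00000122399 higher, ENSMUST00000103422 and ENSMUST00000103418 lower in knockout) where it otherwise called 0. The median over all probes was 0.10, 0.23 with median centring, 0.00 with quantile normalization and -0.08 with normexp; relative to it Cxcr6 stood at 2.43, 2.43, 2.55 and 2.28. The 144 receptor differences moved by less than the knockout SD of the receptor. For Cxcr6, Ccr8 and Ccr9 some moved by more than the wild-type SD (0.28, 0.41 and 0.34), and several receptors changed sign, as given above. Adjusted calls were 0 in every setting but normexp, which says nothing of stability; the probes with an unadjusted p below 0.05, 528, ran from 755 to 1186 on leaving out 1 mouse and were 1513 without both P6 mice, 1110 with median centring, 916 with quantile normalization, 377 with the percentile over detected probes and 309 or 295 after filters, which test fewer probes; ligands below that limit, 3, ran from 1 to 5. The cause was not tested. No paired analysis was possible because the labels give no replicate numbers that pair mice, 1 tag being shared by 1 mouse of each genotype; array column, a position on the slide and not a pairing of animals, was fitted as a block and left the Cxcr6 difference at 2.53 and the calls at 0. Dim probes such as the second Ccr8 probe have no level, and 3 mice a group limit every value.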

Other observations

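Ackr1, the Duffy antigen decoy receptor carried by red blood cells, varied over a wide range within each genotype. It read 4.06, 3.31 and 0.49 in the knockout mice, against 4.49, 0.93 and -0.11 in the wild-type mice. The erythroid list, 8 genes that were all well above background on every array, had centred means of 1.35, 0.28 and -1.10 in the knockout mice, against 1.62, -1.26 and -0.89 in the wild-type mice. Wild-type replicate 1 and knockout replicate 1 were highest in both, and the part of red cell RNA in the Ackr1 level was not tested.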
